A study of Rattus norvegicus with 10 samples.

Results

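The 7 mature miRNAs described here are those known for induction during inflammation and gliosis, namely miR-21-5p, miR-21-3p, miR-146a-5p, miR-146b-5p, miR-155-5p, miR-221-3p and miR-222-3p. They were chosen by name from the 765 rat miRNAs of the deposited table, and all 7 were listed. The libraries hold small RNAs of the hippocampus of 10-week-old Wistar rats, with 5 libraries of sham-operated rats and 5 of rats with 2-VO, the occlusion of both common carotid arteries that models chronic cerebral hypoperfusion. The treatment protocol of the labels names the occlusion for all samples, so the groups were taken from each sample's own treatment label. No other treatment is named, and the sources used here give neither the time after the operation nor the sex. The libraries are named by the numbers of their titles, sham 1 to 5 and 2-VO 3, 5, 6, 7 and 8, and nothing in the labels says that each came from a separate animal. The p-values therefore reflect only how these libraries vary, and that variation may be technical.

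A miRNA is cut from a hairpin precursor, and the arm that is loaded into an Argonaute protein represses mRNAs that pair with its seed. Toll-like receptor and NF-κB signalling raises transcription of miR-146a and miR-155 in leukocytes and microglia. The miR-146 pair represses the adaptors Irak1 and Traf6 and so damps the same signalling, whereas miR-155 represses the inhibitors Socs1 and Inpp5d and so sustains it. Reactive astrocytes raise miR-21, which represses Pdcd4, and miR-221 and miR-222 repress the cell cycle inhibitor Cdkn1b and the receptor Kit in vessel wall and proliferating cells.

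The mature sequences are shown because they divide the members into seed families. They are those of RefSeq on build GRCr8, 5′ to 3′, with the seed (bases 2 to 8) in capitals, and all 7 members matched by name.
miR-21-5p: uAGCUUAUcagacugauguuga
miR-21-3p: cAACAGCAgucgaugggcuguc
miR-146a-5p: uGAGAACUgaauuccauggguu
miR-146b-5p: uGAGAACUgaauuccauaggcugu
miR-155-5p: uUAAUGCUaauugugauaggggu
miR-221-3p: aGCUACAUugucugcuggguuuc
miR-222-3p: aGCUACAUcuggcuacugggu

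The seed GAGAACU was shared by miR-146a-5p and miR-146b-5p, and GCUACAU by miR-221-3p and miR-222-3p. No other mature rat miRNA of the RefSeq table had a member's seed. The miR-146 pair was identical over the first 17 bases and differed over the compared 22 bases by G18A and U21C, written as the base of miR-146a-5p, the position from its 5′ end and the base of miR-146b-5p. miR-146b-5p is longer by 2 bases. Compared position by position from the 5′ end without gaps, miR-221-3p and miR-222-3p were identical over the first 8 bases and at 11 of 21 positions. With a gap after base 8 of miR-221-3p most later bases would line up. The count therefore does not measure how far the pair diverged. The sources used here do not say how a shortened read ending before base 18 was assigned within the miR-146 pair. The 2 miR-146 hairpins lie on different chromosomes, Mir146a at chr10:28349996-28350090 on the minus strand and Mir146b at chr1:255144860-255144947 on the plus strand. Mir222 (chrX:6022621-6022723) and Mir221 (chrX:6023182-6023290) lie on the plus strand with 458 bases between them. Mir21 lies at chr10:71902600-71902691 on the minus strand and Mir155 at chr11:37261114-37261178 on the plus strand. These positions are those of GRCr8, not of rn6, the build named in the submitters' processing notes, and the deposited table holds none.

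Levels are in RPM, reads scaled to a common library size by a divisor of 13032805 to 13850400 reads per library, and every listed value above 0 stood for at least 10 reads. Read numbers here were inferred from the RPM steps. The listed miRNAs took 60.3% to 78.0% of the divisor, with the lowest share in 2-VO 3. The miRNAs listed here for neurons were abundant, as in brain tissue. miR-9a-5p averaged 132415 RPM, miR-128-3p 52524 RPM and miR-124-3p 2255 RPM over the 10 libraries. Markers of epithelium (miR-200a-3p, miR-200b-3p, miR-200c-3p and miR-141-3p) summed to 43.2 RPM in 2-VO 3 against 2.53 to 10.5 RPM in the other libraries. This excess lay in miR-200a-3p and miR-200b-3p only. miR-200c-3p averaged 2.14 ± 0.744 RPM (sham) and 2.19 ± 0.425 RPM (2-VO; SD, n = 5), and miR-141-3p was at 0 throughout. 2-VO 3 stands apart by these measures, so the members' fold changes, paralog and arm ratios, and the correlations named are also given without it.

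The 7 members' share of the listed RPM was 1.22% ± 0.0559 (SD, n = 5) for sham and 1.22% ± 0.109 (SD, n = 5) for 2-VO. miR-21-5p alone was 43.3% ± 4.05 of the members' sum in sham and 46.5% ± 5.75 in 2-VO libraries, and its largest share, 56.3%, was in 2-VO 3. The members spanned more than 3 orders of magnitude. miR-21-5p was the highest member in all 10 libraries and ranked 32 of 765 by mean RPM, between miR-379-5p (4011 RPM) and miR-181a-5p (3785 RPM). miR-221-3p and miR-146b-5p followed at ranks 49 and 51 and exchanged places, with miR-221-3p above miR-146b-5p in 7 of 10 libraries, so their levels do not differ beyond the spread. Between them in rank stood only miR-598-3p (1883 RPM), while miR-3543 (2062 RPM) lay above miR-221-3p and miR-340-5p (1794 RPM) below miR-146b-5p. miR-222-3p (rank 73, between miR-186-5p at 942 RPM and miR-541-5p at 871 RPM) lay below both in every library. miR-146a-5p (rank 175, between miR-125b-1-3p at 143 RPM and miR-410-3p at 133 RPM) and miR-155-5p (rank 442, between miR-29a-5p and miR-450b-3p at 1.83 RPM each) came next without overlap. RPM of mature miRNAs of nearly equal length was compared, and adapter ligation, which also differs between sequences, was not corrected.

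**Figure D1:**
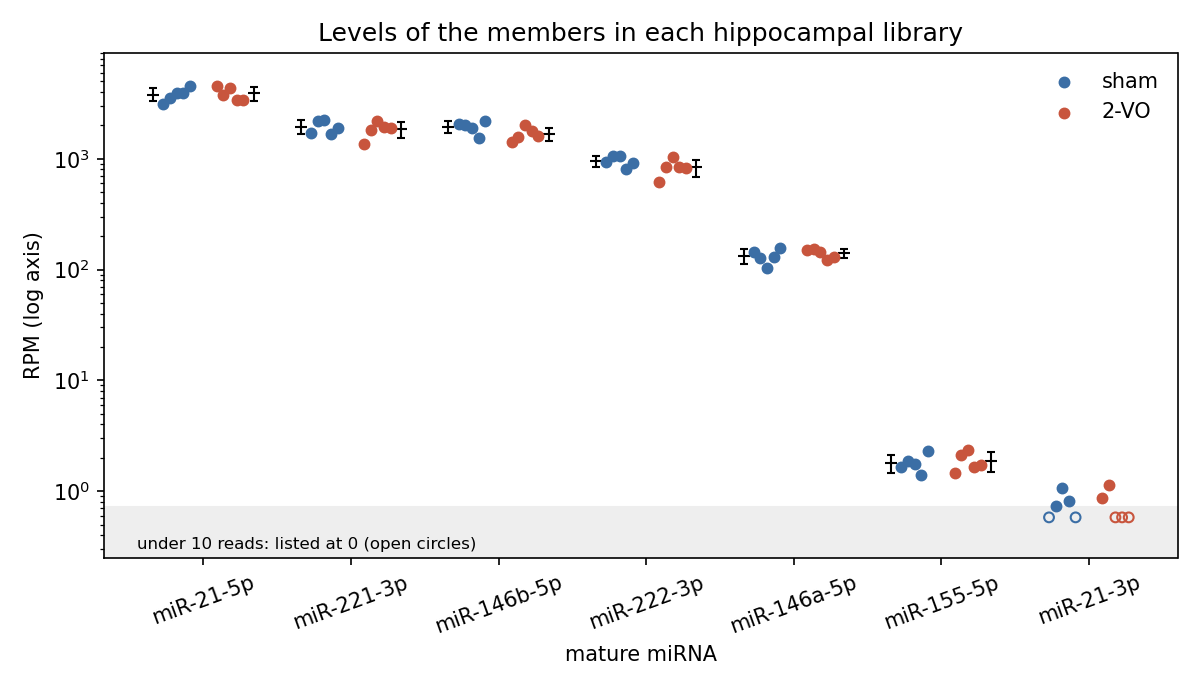
RPM on a log axis for each of the 7 members in 5 sham (blue) and 5 2-VO (red) libraries, with points for libraries. Black bars give mean ± SD for all members except miR-21-3p. The groups overlap for every member, miR-21-5p is highest throughout, and miR-21-3p is listed above 0 in 5 of 10 libraries (open circles stand for values listed at 0).

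2-VO was compared with sham to ask whether these miRNAs differ after carotid occlusion. Of the 6 members with a mean of at least 1 RPM, 0 passed, where 0% of all 474 such miRNAs passed (limma's moderated test on log2(RPM + 1) with Benjamini-Hochberg adjustment over the 474). At an unadjusted p under 0.05, 0 of 6 members were found with limma, where 5.06% of all miRNAs were. That count was also 0 with voom on whole reads and with an exact permutation test per miRNA. Sham and 2-VO values overlapped for all 6, where 0.633% of all miRNAs had groups that did not overlap. The fold changes of miR-21-5p, miR-146a-5p and miR-155-5p lay above 0 and those of miR-146b-5p, miR-221-3p and miR-222-3p below it. Their median log2 fold change was -0.024, beside -0.051 over all 474 miRNAs. The 95% intervals of all 6 members stayed inside a 1.5-fold change up or down, as did those of 406 of the 474 miRNAs. These intervals are on log2(RPM + 1), which narrows them for low miRNAs such as miR-155-5p.

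miR-21-5p, the most abundant member, stood at 3129, 3550.4, 3890.1, 3908 and 4510.2 RPM in sham 1 to 5. In 2-VO 3, 5, 6, 7 and 8 it stood at 4572, 3779.7, 4343, 3379 and 3397 RPM. The highest value and the values near the low end were both in the 2-VO group, and the lowest was in sham 1. The means were 3798 ± 509 and 3894 ± 544.5 RPM (SD, n = 5). On the log2 scale 2-VO minus sham was 0.035 ± 0.12 (SE), with a limma adjusted p of 0.96 and a 95% interval of 0.860- to 1.22-fold. Its sign turned without sham 1 (-0.032), 2-VO 3 (-0.025) or 2-VO 6 (-0.0067).

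The passenger arm miR-21-3p was at the limit of the table. It was listed at 0.742, 1.07 and 0.814 RPM in sham 2, 3 and 4 and at 0.875 and 1.15 RPM in 2-VO 3 and 5. In the other 5 libraries it was listed at 0, which stands for fewer than 10 reads, that is under 0.722 to 0.767 RPM. Its largest value was 15 reads. It was not tested, and a difference between the groups was not detectable at this depth.

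miR-146b-5p, the major miR-146 of these libraries, stood at 2052, 2017, 1888, 1547 and 2213 RPM in sham 1 to 5. In 2-VO 3, 5, 6, 7 and 8 it stood at 1417, 1560.5, 2025, 1774 and 1604 RPM. All 2-VO libraries except 2-VO 6 lay below all sham libraries except sham 4. The means were 1943 ± 250.1 and 1676 ± 233 RPM (SD, n = 5). The difference of -0.21 ± 0.12 (SE) on the log2 scale had a limma adjusted p of 0.77, the smallest p among the members. The fold change had a 95% interval of 0.722- to 1.03-fold and was -0.16 both without 2-VO 3 and scaled to the listed miRNA reads. Its unadjusted p was 0.025 without sham 4 and 0.029 without 2-VO 6.

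miR-146a-5p, the paralog that NF-κB induces in immune cells, stood at 143, 127.8, 102, 129.8 and 157 RPM in sham 1 to 5. In the 2-VO libraries, in the same order as above, it stood at 149, 153, 143, 122 and 131 RPM. The sham values were the wider and enclosed all 2-VO values. The log2 fold change was 0.092 ± 0.12 (SE; limma adjusted p = 0.93, 95% interval 0.890- to 1.28-fold), and 0.067 without 2-VO 3. It was 0.0051 without sham 3, the lowest library, and 0.16 without sham 5, the highest, 0.15 scaled to listed reads and 0.16 with TMM factors.

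miR-155-5p, which activated myeloid cells and lymphocytes express, rested on 19 to 31 reads per library. Its levels were 1.66, 1.85, 1.75, 1.41 and 2.30 RPM in sham 1 to 5 and 1.46, 2.14, 2.36, 1.65 and 1.73 RPM in the 2-VO libraries. Between libraries it varied by a coefficient of variation of 18.1%, where counting error alone gives about 20.2%, so the differences between libraries were within counting error. The log2 fold change was 0.036 ± 0.14 (SE; limma adjusted p = 0.96, 95% interval 0.830- to 1.27-fold), 0.089 without 2-VO 3, and turned to -0.017 without sham 4 and -0.024 without 2-VO 6. At this level log2(RPM + 1) understates the change and narrows its interval. With voom on whole reads the log2 fold change was 0.052 (95% interval -0.36 to 0.47).

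miR-221-3p stood at 1691, 2187, 2257, 1682 and 1899.5 RPM in sham 1 to 5 and at 1352, 1829, 2195, 1945 and 1893 RPM in the 2-VO libraries. 2-VO 3 was the lowest of all 10, and the other 4 2-VO libraries lay inside the sham range. The log2 fold change was -0.083 ± 0.13 (SE; limma adjusted p = 0.96), and 0.024 without 2-VO 3. miR-222-3p, its cluster partner, stood at 928, 1052, 1059, 800.01 and 922 RPM in sham and at 622, 846, 1039.8, 834 and 829 RPM in 2-VO libraries. Again 2-VO 3 was lowest. Its log2 fold change was -0.20 ± 0.13 (SE; limma adjusted p = 0.81, 95% interval 0.717- to 1.05-fold), -0.10 without 2-VO 3 and -0.29 without 2-VO 6, where the unadjusted p was 0.038.

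**Figure D2:**
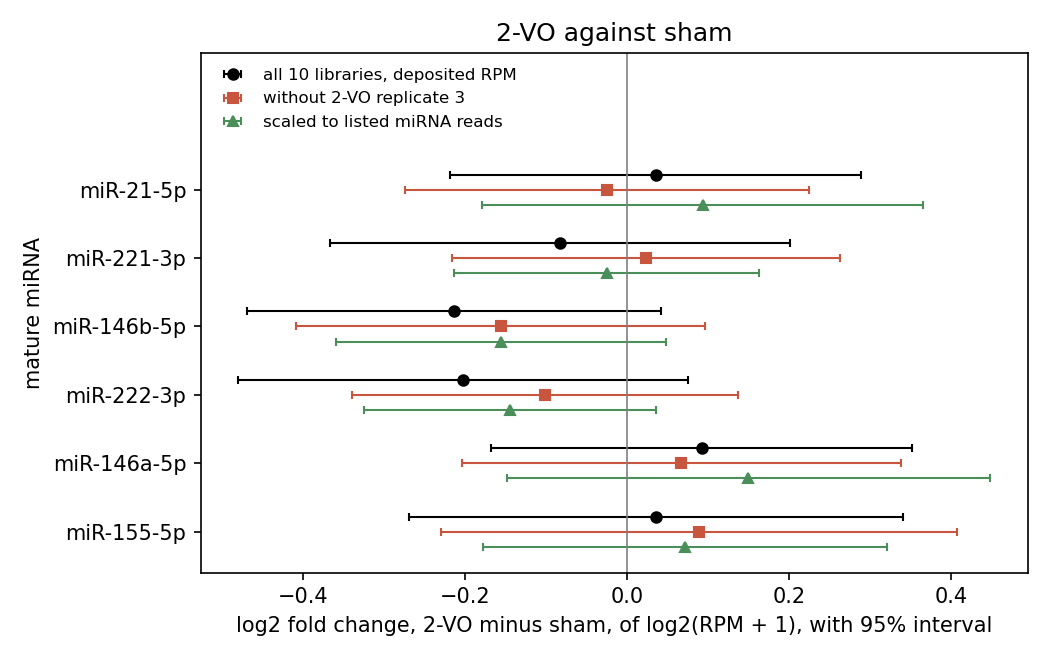
Log2 fold change of 2-VO minus sham with its 95% limma interval for the 6 tested members, over all libraries (black), without 2-VO 3 (red) and scaled to the listed miRNA reads (green). Every interval holds 0, and the point of miR-221-3p moves from -0.083 to 0.024 without 2-VO 3.

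The ratio of paralogs with the same seed does not depend on the divisor of a library. The ratio of miR-221-3p to miR-222-3p was 1.82, 2.08, 2.13, 2.10 and 2.06 in sham 1 to 5. In 2-VO 3, 5, 6, 7 and 8 it was 2.18, 2.16, 2.11, 2.33 and 2.28. All 2-VO libraries except 2-VO 6 lay above all sham libraries. On the log2 scale the ratio averaged 1.02 ± 0.091 for sham and 1.14 ± 0.059 for 2-VO (SD, n = 5). The means differed by 0.12 (exact two-sided permutation test, p = 0.016, Benjamini-Hochberg adjusted over the 2 paralog ratios p = 0.032). Of all 140 same-seed pairs of the table tested in the same way, 8.57% had an exact permutation p under 0.05, and adjusted over the 140 the p of this pair was 0.37. The 140 pairs came from 46 seeds and many share a miRNA, above all in the let-7 family, so they are not separate comparisons. A larger difference in either direction was found for 42.9% of the 140 pairs, and 0 pairs passed after adjustment. The difference was 0.12 without 2-VO 3. Without sham 1, the lowest library, it was 0.079 (exact permutation test, adjusted p = 0.079). The adjusted p over the 2 ratios, by the exact permutation test, was 0.063 without 2-VO 3, 5 or 8 and 0.071 without 2-VO 7.

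miR-146b-5p exceeded miR-146a-5p by 14.4-, 15.8-, 18.4-, 11.9- and 14.1-fold in sham 1 to 5. In the 2-VO libraries the excess was 9.48-, 10.2-, 14.2-, 14.5- and 12.2-fold. The ranges overlapped, with the lowest excess in 2-VO 3 and 5 and the highest in sham 3. The log2 ratio of miR-146a-5p to miR-146b-5p averaged -3.87 ± 0.229 for sham and -3.57 ± 0.275 for 2-VO. The means differed by 0.31 (exact two-sided permutation test, n = 5, p = 0.13, adjusted over the 2 ratios p = 0.13 and over the 140 pairs p = 0.51), and by 0.22 without 2-VO 3.

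**Figure D3:**
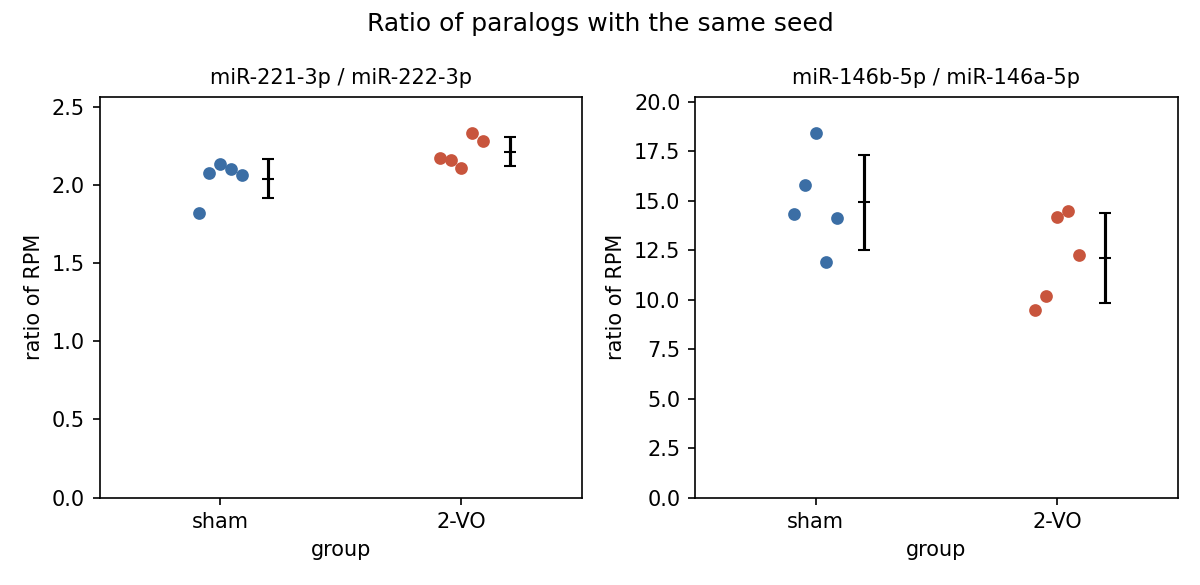
Ratio of RPM of miR-221-3p to miR-222-3p (left) and of miR-146b-5p to miR-146a-5p (right) in each sham and 2-VO library, with mean ± SD beside the points. The left ratio runs from 1.82 to 2.13 in sham and from 2.11 to 2.33 in 2-VO libraries, and the right ratio overlaps between the groups.

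The members' hairpins differed in how much of the second arm was found. miR-221 had both arms in quantity, with the 3p arm at 82.4% of the hairpin's RPM on average (80.1% to 84.6% over the libraries) and miR-221-5p averaging 391 ± 52.4 RPM (sham) and 417 ± 90.03 RPM (2-VO). miR-222-5p was listed in 5 of 10 libraries and at most at 1.19 RPM, although its partner arm was abundant. miR-146b-3p took 0.980% of its hairpin's RPM (0.815% to 1.28%), with means of 17.6 ± 1.31 RPM (sham) and 17.6 ± 1.81 RPM (2-VO). miR-146a-3p was listed in 2 libraries, and miR-155-3p at 0 in all 10. Over all libraries 515183 reads of miR-21-5p and 62 listed reads of miR-21-3p were counted, leaving out libraries with fewer than 10 reads.

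Of the members' hairpins, miR-146b and miR-221 had both arms above the filter and could be tested for a change in arm balance, as 5p over 3p. Neither passed, where 0% of 132 hairpins passed and 11.4% had an unadjusted p under 0.05 (limma, adjusted over the 132). For miR-146b the log2 ratio averaged 6.70 ± 0.121 (sham) and 6.49 ± 0.228 (2-VO; difference -0.21 ± 0.12 (SE), limma adjusted p = 0.52; -0.18 without 2-VO 3). That of miR-221 was -2.31 ± 0.184 and -2.15 ± 0.0904 (difference 0.16 ± 0.10 (SE), limma adjusted p = 0.56; 0.17 without 2-VO 3).

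**Figure D4:**
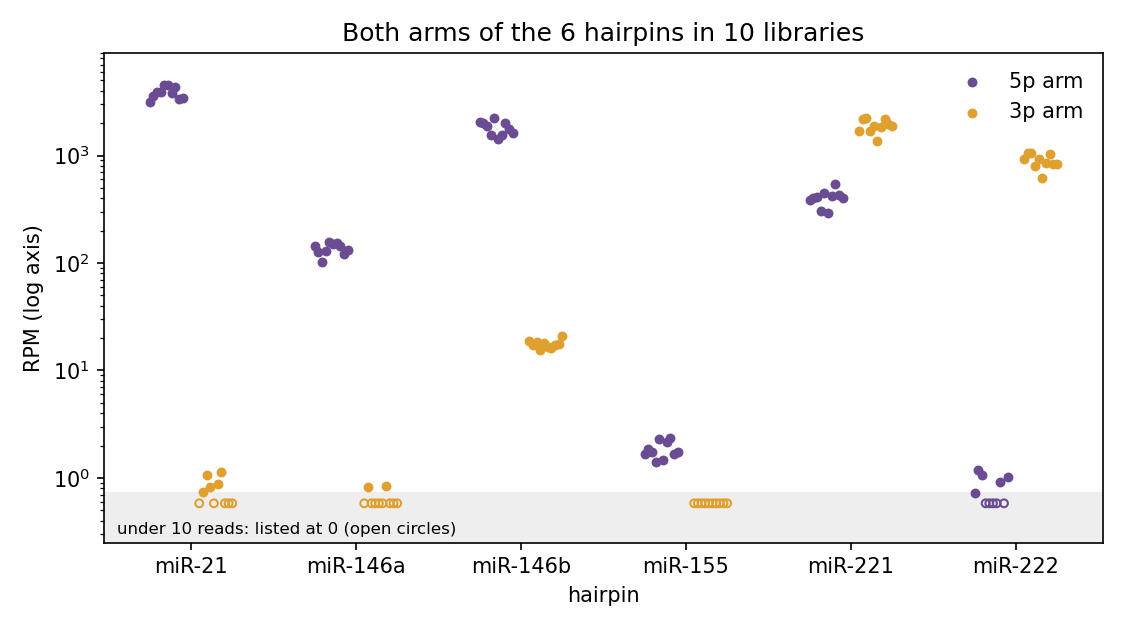
RPM on a log axis of the 5p arm (purple) and the 3p arm (yellow) of the 6 hairpins in all 10 libraries, with open circles for values listed at 0. Both arms of miR-221 are abundant, while the lesser arm of miR-21, miR-146a, miR-155 and miR-222 lies at or under the limit.

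The members were also compared from library to library. With 10 libraries, an r that does not pass does not show that a pair varies separately. miR-221-3p and miR-222-3p were both highest in sham 2, sham 3 and 2-VO 6 and both lowest in 2-VO 3. Over the 10 libraries their log2 levels correlated with r = 0.91 (permutation test, p = 0.00072, adjusted p = 0.011) and rho = 0.81 (p = 0.0069, adjusted p = 0.10). Without the 2 libraries farthest from the median, r was 0.74. miR-146b-5p and miR-222-3p correlated with r = 0.81 (permutation test, p = 0.0036, adjusted p = 0.027), rho = 0.72 (adjusted p = 0.18), and r = 0.83 without the 2 farthest libraries. These were the 2 pairs of 15 whose r passed, adjusted over the 15. miR-155-5p had r of 0.59 with miR-146b-5p, 0.56 with miR-221-3p and 0.56 with miR-222-3p (permutation test, adjusted p = 0.22 for each). Scaled to the listed miRNA reads these r were 0.30, 0.12 and 0.12.

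RPM values of a library share its divisor. Scaled to the listed miRNA reads, r was 0.77 for miR-221-3p with miR-222-3p and 0.61 for miR-146b-5p with miR-222-3p (permutation test, adjusted p = 0.13 and 0.21), and 0 pairs passed. Without 2-VO 3, r was 0.80 and 0.71 and 0 pairs passed either (permutation test, adjusted p = 0.18 and 0.30). For deviations from the group means r was 0.94 and 0.75, and only the first passed (permutation test, adjusted p = 0.063 for the second). Groups of 5 are too small for an r of their own. miR-21-5p had r of -0.18 with miR-221-3p and -0.22 with miR-222-3p (permutation test, adjusted p = 0.73 and 0.69). The sign rested on 2-VO 3, since both turned positive without it, at 0.32 and 0.27 (permutation test, adjusted p = 0.57 for each), and they were -0.52 and -0.61 scaled to listed reads (adjusted p = 0.25 and 0.21). miR-146a-5p had r of -0.035 with its paralog miR-146b-5p (permutation test, adjusted p = 0.93), 0.15 without 2-VO 3 and 0.063 scaled to listed reads. On deposited RPM miR-21-5p reached its highest level in 2-VO 3 while miR-221-3p, miR-222-3p and miR-146b-5p were at their lowest. As a share of the listed RPM this did not hold for miR-146b-5p, which was at 0.235% in 2-VO 3 and 0.215% in 2-VO 8.

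**Figure D5:**
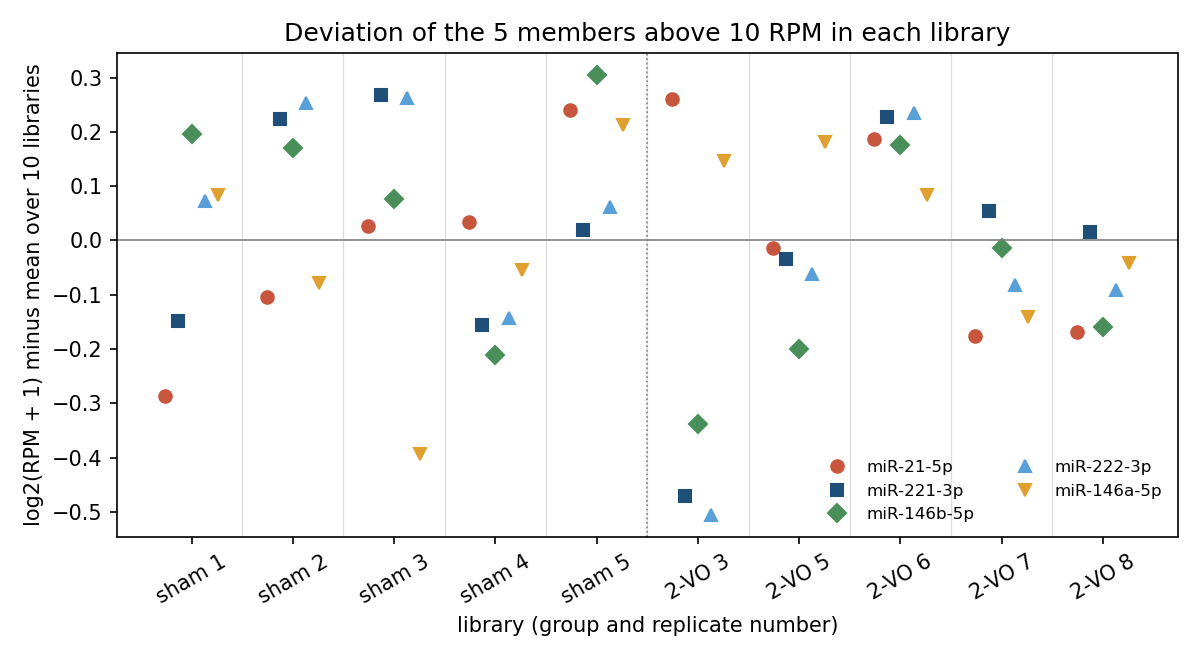
Log2(RPM + 1) of the 5 members above 10 RPM as the deviation from their own mean over the 10 libraries, by library (sham left of the dotted line, 2-VO right). In 2-VO 3 miR-221-3p and miR-222-3p lie lowest while miR-21-5p lies highest.

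The spread of the members between libraries was set beside that of other miRNAs. The coefficient of variation over the 10 libraries was 12.99% for miR-21-5p, 12.1% for miR-146a-5p, 14.8% for miR-146b-5p, 14.7% for miR-221-3p and 15.3% for miR-222-3p, beside a median of 13.6% for the 339 miRNAs of at least 10 RPM. Counting error was far smaller, from 0.441% for miR-21-5p to 2.34% for miR-146a-5p. Scaled to listed reads the coefficient was 9.32% for miR-221-3p, 9.69% for miR-222-3p, 11.9% for miR-146b-5p, 16.5% for miR-21-5p and 16.1% for miR-146a-5p, beside a median of 11.5%. On deposited RPM the 5 members lay within the quartiles of all miRNAs (11.2% to 17.7%).

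The miRNAs whose levels most resembled each member's over the 10 libraries were found by Pearson's r on values scaled to the listed reads, among 338 candidates of at least 10 RPM. As the highest of so many, these r are descriptions. Without 2-VO 3 the 10 r named here lay between 0.66 and 0.92. miR-21-5p was nearest to miR-181b-5p (r = 0.93) and to the oligodendrocyte miRNA miR-219a-2-3p (r = 0.90). miR-221-3p was nearest to miR-672-5p (0.94) and miR-374-5p (0.87), and miR-222-3p to miR-664-2-5p (0.90) and miR-672-5p (0.87). miR-146b-5p was nearest to miR-664-2-5p (0.74) and miR-30c-1-3p (0.68), and miR-146a-5p to miR-673-3p (0.89) and miR-129-5p (0.87). The families thus had separate nearest miRNAs except for the chromosome X pair, which shared miR-672-5p, and miR-146b-5p and miR-222-3p, which shared miR-664-2-5p.

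Markers of cell types were read beside the members, since in bulk tissue fewer cells of a type and less RNA per cell cannot be told apart. The leukocyte and microglia list (miR-142-3p, miR-142-5p, miR-223-3p, miR-150-5p and miR-342-3p) summed to 360 to 406 RPM in sham and 315 to 412 RPM in 2-VO libraries, and 0 of its 4 tested members passed (2 higher and 2 lower in 2-VO, limma). The 2 higher were miR-142-3p (log2 fold change 0.18) and miR-142-5p (0.14), at 22.2 and 11.0 RPM on average. The 2 lower were miR-150-5p (-0.087) and miR-342-3p (-0.16), which made up most of the sum. miR-150-5p, of lymphocytes, was the list's most abundant member at 229 RPM on average, followed by miR-342-3p at 114 RPM, while the neutrophil and monocyte miRNA miR-223-3p averaged 0.863 ± 0.542 RPM (sham) and 1.121 ± 0.457 RPM (2-VO), near the limit. It was named after its values were seen. The oligodendrocyte list (miR-219a-5p, miR-219a-2-3p and miR-338-3p, led by miR-219a-2-3p at 2112 RPM and miR-338-3p at 121 RPM) summed to 1865 RPM in sham 1, its lowest sham value, and to 2923 RPM in 2-VO 3, its highest of all. Over all libraries its lowest sum was 1615 RPM in 2-VO 8. miR-21-5p was likewise lowest of the sham libraries in sham 1 and highest of all in 2-VO 3. miR-219a-2-3p makes up most of this sum and was also named above as near to miR-21-5p, so these observations are not separate. Between the groups miR-219a-2-3p was lower in 2-VO (log2 fold change -0.15). miR-219a-5p (0.12) and miR-338-3p (0.13) were higher, and 0 of the list passed (limma). The part of oligodendrocyte content in the miR-21-5p values was not tested.

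Vessel markers are given because miR-221 and miR-222 are also miRNAs of the vessel wall. The endothelial markers miR-126a-3p and miR-126a-5p summed to 6555 to 7731 RPM in sham and 5769 to 8326 RPM in 2-VO libraries. Those of smooth muscle and pericytes (miR-143-3p, miR-145-5p and miR-145-3p) summed to 11620 to 13850 RPM in sham and 10215 to 14362 RPM in 2-VO libraries. On deposited RPM the lowest sum was in 2-VO 7 for endothelium and in 2-VO 3 for smooth muscle and pericytes. It was also in 2-VO 3 for the lists of neurons, leukocytes and microglia, red blood cells and other inflammation-regulated miRNAs. The listed share of 2-VO 3 was the lowest as well, at 60.3%, and the sums were not scaled to listed reads. The neuron and inflammation lists are not separate, since both hold miR-9a-5p (132415 RPM on average) and miR-124-3p. None of the 5 vessel markers passed (limma). Markers of red blood cells, led by miR-486 and miR-451-5p, summed to 131 to 157 RPM in sham and 84.9 to 220 RPM in 2-VO libraries. Those of fibroblasts and meninges, led by miR-199a-3p and miR-199a-5p, summed to 96.2 to 140.4 and 92.1 to 151 RPM. Those of choroid plexus, led by miR-204-5p and miR-448-3p, summed to 548 to 949 and 387 to 562 RPM. None of the tested markers of these 3 lists passed (limma), and 2 of 3 choroid plexus markers had an unadjusted p under 0.05, where 5.06% of all miRNAs had. Their part in the members' values was not tested.

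Other miRNAs that inflammatory signalling regulates were read from a list of 26, of which 23 were tested. Of these, 0 passed in either direction (limma, adjusted over the 474), 11 had fold changes above and 12 below 0, and the median was -0.0094 on the log2 scale beside -0.051 over all miRNAs. An unadjusted p under 0.05 was found for 1 of 23, a share near the 5.06% of all miRNAs. This was miR-34a-5p, a p53 target that inflammation also raises, with means of 40.9 ± 6.27 RPM (sham) and 55.0 ± 8.02 RPM (2-VO; log2 difference 0.42, limma adjusted p = 0.64). Next by p came miR-24-3p (-0.21) and miR-23b-3p (0.17), with fold changes of opposite sign. miR-125b-5p, which represses Tnf mRNA and is near-identical to the row miR-3588, had -0.17, the CREB-induced miR-212-3p 0.25, and let-7e-5p -0.15 on the log2 scale, with limma adjusted p between 0.76 and 0.81 for these 5. miR-147, a miRNA of stimulated macrophages, was listed at 0 in all libraries.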

How the data were processed

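The data are 5 sham and 5 2-VO small RNA libraries of rat hippocampus. The authors deposited RPM values per mature miRNA, made with bcl2fastq and BWA on rn6 per the submitters' processing notes. The sources used here do not give the annotation, the divisor or how multiply matching reads were handled. All 4962 deposited RPM values above 0 were whole reads within 0.01 at 1 divisor per library, and none stood for fewer than 10 reads. These reads, and the counting errors from them, were inferred from the RPM steps and rest on the largest step that makes all values whole. Reads outside the table enter the divisor, so each RPM depends on their share.

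The 474 miRNAs averaging 1 RPM or more were compared on log2(RPM + 1) with limma 3.58.1 in R 4.3.3 (mean-variance trend, no covariate, two-sided, Benjamini-Hochberg adjustment, threshold 0.05). This scale understates the change of low miRNAs. The code was tested on simulated data. Ratios were tested over all 252 assignments of the libraries, with a smallest p of 0.0079, and correlations with 100000 resamples. Intervals are 95%. The members and lists were chosen with earlier results of these data known. The text names the members, their other arms, their neighbours in rank, the 2 nearest patterns, the 2 most abundant markers of a list, and the 6 listed inflammatory miRNAs of at least 10 RPM with the smallest p. Libraries of a group differed by more than counting error (lowest chi-square per degree of freedom 96.4). Sequences are from RefSeq (GRCr8), which matched 690 of 765 names. The comparison with all 140 same-seed pairs was added after the data were seen.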

Additional observations from a re-analysis of the deposited data

Results flagged for a closer look

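Of 30 groups of 5 values from the members, 3 had a library whose gap to its nearest neighbour exceeded 0.71 of the range, where chance gives about 1.5. miR-146b-3p stood at 20.7 RPM in 2-VO 8, against 16.3 to 17.5 RPM in the other 2-VO libraries. The log2 ratio of miR-221-3p to miR-222-3p was 0.87 in sham 1, against 1.04 to 1.09 in the other sham libraries. The members summed to 9748 RPM in 2-VO 6, against 7855 to 8172 RPM in the other 2-VO libraries. No cause was tested for these values.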

How the results depend on the processing

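The count of members and of all miRNAs past the threshold was 0 under each of 19 other settings (pseudocounts of 0.5 and 5, no filter, a filter of 10 RPM, scaling to listed reads, TMM factors, voom on whole reads, an exact permutation test, a block and 10 left-out libraries). Leaving out 1 library moved the log2 fold change of miR-21-5p between -0.032 and 0.10, of miR-155-5p between -0.024 and 0.098 and of miR-221-3p between -0.15 and 0.024, and the other 3 tested members kept their sign under all settings. The number of hairpins past the threshold ranged from 0 to 3 (3 without sham 5 and 1 without 2-VO 3, none of them a member's). The miR-221-3p to miR-222-3p difference ranged from 0.079 to 0.14, and at 0.12 it did not pass adjusted over all same-seed pairs. The 2 correlated pairs became 0 scaled to listed reads, 1 for deviations from the group means, and 0 to 2 without a library (0 without 2-VO 3, 1 without sham 2, sham 4 or 2-VO 6). The causes were not tested.

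Numbers 3 and 5 are shared by the titles of both groups. With the replicate block the log2 fold change of miR-146b-5p was -0.19 and 0 miRNAs passed, and at an unadjusted p under 0.05 there were 17 in place of 24. Deviations from the group means correlated at -0.058 for number 3 and -0.18 for number 5. Pairs of libraries without a shared number ran from -0.38 to 0.44. These 2 values cannot show whether a shared number means anything, and the sources used here do not state it. The planned count model in edgeR was not run, since reads were only inferred from RPM (with the smallest value as 1 read they are not whole) and no value under 10 reads is listed. Depth limits miR-155-5p and miR-21-3p.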
